A study of Mus musculus with 6 samples.

Results

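RNA levels of 10 genes of the NF-κB pathway were read in the cerebral cortex of mice. The genes were chosen by name: Rela, Nfkb1, Relb and Nfkb2 encode subunits of the transcription factor, Nfkbia and Tnfaip3 encode proteins that restrain it, and Birc3, Ptgs2, Vcam1 and Icam1 are genes it is known to induce. All 10 were found among the 54532 genes measured. Tissue came from mice of 12 months of age, with 3 libraries from wild-type (WT) cortex and 3 whose label is Fam69c-/-, called KO-labelled here. Fam69c encodes a kinase-like secretory pathway protein, and the series is titled for its part in stress granules and inflammasome activation. The labels give the same tissue and age for both groups and do not give strain, sex, how the allele was made, or whether each library is 1 animal, so each p-value reflects only how far libraries differ, which may be technical.

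Each level is in FPKM, reads scaled to gene length and library depth. Comparisons of levels between genes therefore rest on the length deposited for each gene model. Libraries held from 30935326 to 35065884 reads. Fam69c RNA itself read 2.03, 1.57 and 2.08 FPKM in WT and 1.54, 1.84 and 1.42 FPKM in KO-labelled libraries, groups that overlap, so this RNA does not check the labels and each direction below is between libraries as labelled. Markers of excitatory neurons of the cortex were abundant in every library, with a summed level of 836 to 881 FPKM in WT and 836 to 869.7 FPKM in the others. Genes of striatal projection neurons, which lie below the cortex, summed to 147 to 432 FPKM in WT and 201 to 381 FPKM in KO-labelled libraries, lowest in WT replicate 3 and next lowest in KO-labelled replicate 1.

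NF-κB is a family of dimers built from related subunits. In resting cells the dimers are held in the cytoplasm by inhibitors of the IκB family, and signals from receptors for tumour necrosis factor, interleukin 1 and microbial products activate the IκB kinase complex, which marks the inhibitor for destruction and frees the dimer to enter the nucleus. The freed dimer induces genes for cytokines, adhesion molecules and survival factors, and also genes for its own restraint, so that its activity is usually brief. In brain, microglia, astrocytes and endothelium respond through this pathway to injury and infection. The activity of the factor is set largely by location and modification of proteins, which RNA levels do not show.

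The 300-base promoters of the members were read first, since several of these genes are textbook targets of the factor that they encode or restrain. RefSeq sequences (GRCm38.p6), running from 250 bases before to 50 bases after a start site, were given for 7 members, and Nfkb1, Relb and Vcam1 had no entry. A κB consensus of 10 bases, the classical binding motif of NF-κB, was searched on both strands, together with a looser motif (GGG, then any 5 bases, then CC), of which every consensus match is also a match. The consensus was found in promoters of Nfkbia, Nfkb2 and Tnfaip3, 3 of 7 members and 5 of their 10 promoter entries, while 4.51% of all 32851 promoters in the table and 5.25% of those of genes tested here hold it. The Nfkb2 entries that start at 46305445 and 46305680 overlap and share a consensus site, counted in both. The shares are per entry, while 3 of 7 counts a member with the consensus in any entry. The looser motif was in all 7, and in 50.8% of all promoters and 66.1% of those of genes tested. Those shown, from the first entry of each gene, run 5′ to 3′ on the strand of the gene. The consensus is in those of Nfkbia (chr12:55492598-55492897, minus strand), Nfkb2 (chr19:46304487-46304786, plus strand) and Tnfaip3 (chr10:19015361-19015660, minus strand). Also shown are the promoters of Ptgs2 (chr1:150099781-150100080, plus strand) and Birc3 (chr9:7873121-7873420, minus strand), which hold the looser motif alone and whose RNA, with that of Tnfaip3, separated the groups. Groups were apart in either direction for 8.87% of all genes tested and 9.84% of genes with a mean from 0.1 to 0.5 FPKM. Rela and Icam1, whose groups overlap, also hold the looser motif alone and are not shown. Of the promoters shown, capitals mark the consensus in the first 3 and the looser motif in the others.
Nfkbia promoter: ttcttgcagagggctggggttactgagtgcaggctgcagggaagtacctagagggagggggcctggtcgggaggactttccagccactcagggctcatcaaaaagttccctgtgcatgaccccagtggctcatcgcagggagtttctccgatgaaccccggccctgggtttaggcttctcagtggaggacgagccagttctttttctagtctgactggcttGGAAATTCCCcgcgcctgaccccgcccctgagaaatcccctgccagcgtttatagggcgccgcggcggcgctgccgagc
Nfkb2 promoter: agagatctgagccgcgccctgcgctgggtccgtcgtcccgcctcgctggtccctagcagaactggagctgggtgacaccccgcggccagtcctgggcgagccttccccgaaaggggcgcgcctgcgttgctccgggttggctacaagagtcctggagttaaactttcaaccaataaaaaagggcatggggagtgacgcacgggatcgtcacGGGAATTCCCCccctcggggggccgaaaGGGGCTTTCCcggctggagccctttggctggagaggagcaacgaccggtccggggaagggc
Tnfaip3 promoter: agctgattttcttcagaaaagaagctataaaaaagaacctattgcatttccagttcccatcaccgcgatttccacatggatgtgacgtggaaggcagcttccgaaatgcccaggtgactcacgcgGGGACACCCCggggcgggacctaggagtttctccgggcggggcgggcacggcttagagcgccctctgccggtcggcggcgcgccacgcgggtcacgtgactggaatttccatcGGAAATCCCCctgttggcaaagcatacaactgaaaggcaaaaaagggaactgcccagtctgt
Ptgs2 promoter: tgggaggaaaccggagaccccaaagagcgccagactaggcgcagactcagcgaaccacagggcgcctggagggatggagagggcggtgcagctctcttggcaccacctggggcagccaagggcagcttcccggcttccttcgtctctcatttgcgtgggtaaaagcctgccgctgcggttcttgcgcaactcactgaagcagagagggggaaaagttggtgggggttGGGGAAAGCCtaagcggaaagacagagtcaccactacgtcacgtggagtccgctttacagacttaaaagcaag
Birc3 promoter: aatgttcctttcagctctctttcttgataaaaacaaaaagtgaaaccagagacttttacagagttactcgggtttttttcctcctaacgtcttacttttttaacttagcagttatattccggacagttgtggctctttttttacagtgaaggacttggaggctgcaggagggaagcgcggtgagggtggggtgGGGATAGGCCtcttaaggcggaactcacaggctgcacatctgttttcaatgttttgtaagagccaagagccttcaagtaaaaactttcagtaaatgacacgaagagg

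The match in Nfkbia begins 29 bases before the start site. Nfkb2 holds 3 matches within 39 bases of its start site, 2 of them overlapping, and Tnfaip3 holds 2, beginning 125 and 12 bases before it. Of the promoters shown, that of Ptgs2 has its looser match 23 bases before the start site and that of Birc3 57 bases before it. These matches describe letters in a window and show neither binding nor its absence.

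Between the groups, 0 of the 8 members tested passed an adjusted p of 0.05 (limma with Benjamini-Hochberg adjustment over all 15694 genes tested, adjusted p = 0.999 for each of the 8), where the background over all genes tested was 0%. The test took genes whose mean level reached 0.5 FPKM, on log2(FPKM + 0.5), and log2 fold changes below are on that scale, KO-labelled libraries minus WT. Birc3 and Icam1, with means of 0.438 and 0.435 FPKM, lay below that level, and Tnfaip3, at 1.02 FPKM, was the lowest member inside it. Adding 0.5 shrinks the log2 fold changes of genes near 0.5 FPKM more than those of abundant genes. The estimate for Tnfaip3 was 0.21, and 0.28 with 0.1 added in place of 0.5. Ptgs2 was the 1 member with an unadjusted p under 0.05, which 3.82% of all genes tested had, 2.19% with a lower level in KO-labelled libraries, as for Ptgs2. Of the 8, 3 were higher and 5 lower in KO-labelled libraries, with a median log2 fold change of -0.04 against -0.0042 over all genes, and 5 of the 8 lay within 0.1 log2 units of zero, as did 69.3% of all genes tested. Over all genes tested, 52.0% were lower.

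**Figure D1:**
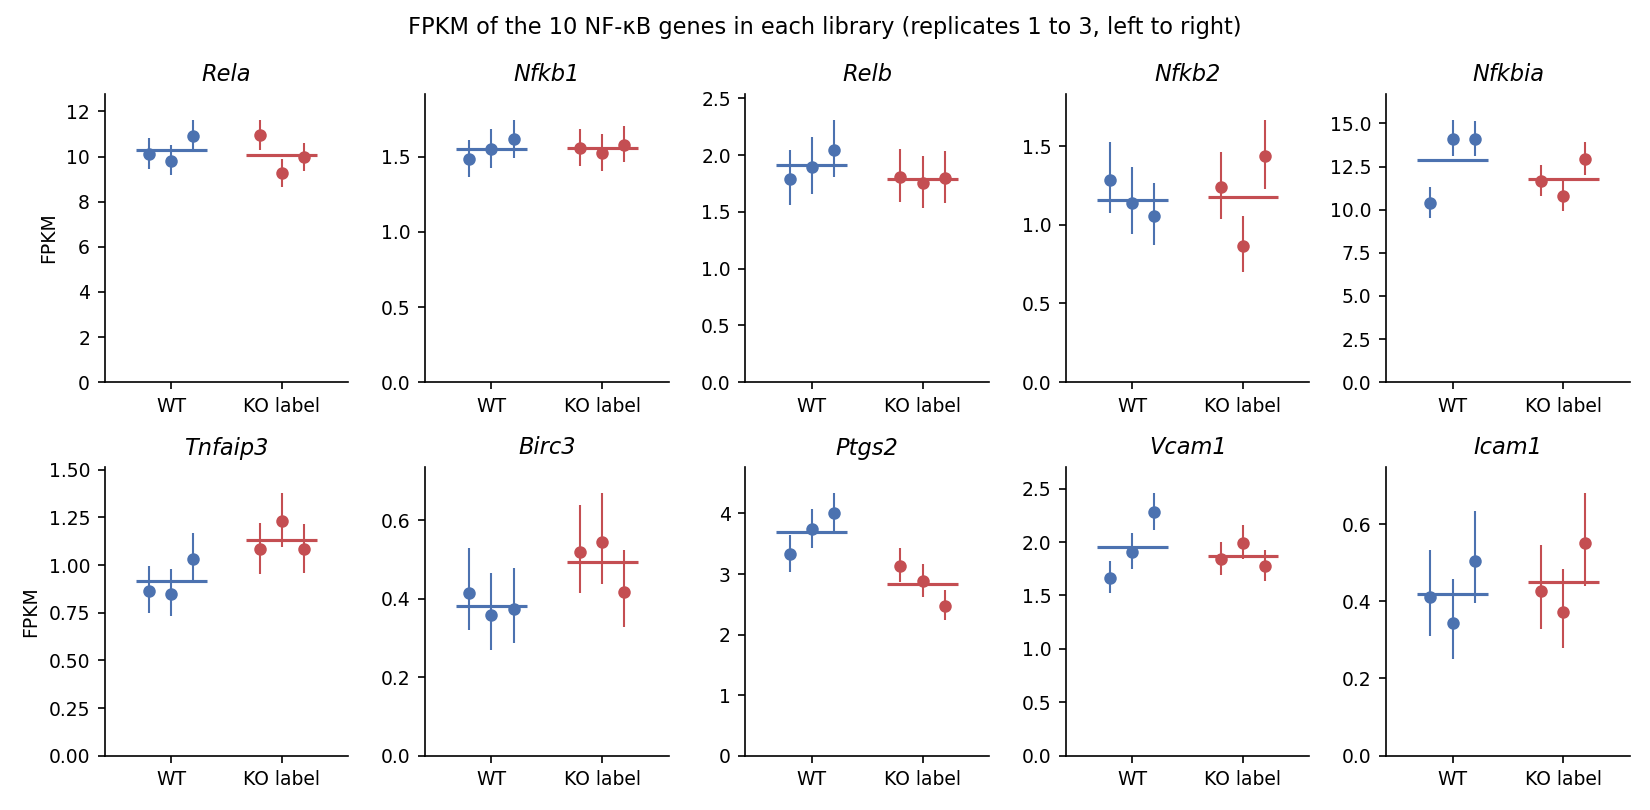
FPKM of each of the 10 genes, with a point for each of the 3 WT and 3 KO-labelled libraries, vertical bars for the exact Poisson 95% interval of the reads (counting error only) and a horizontal line for the mean of 3. Groups are apart for Ptgs2 (3.33 to 4.002 against 2.47 to 3.14 FPKM), Tnfaip3 and Birc3, and overlap for the other 7, where 8.87% of all genes tested have groups apart in either direction.

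Rela, encoding p65, the subunit that carries the main transactivation domain of the canonical dimer, was the most abundant subunit gene (chromosome 19, 5637483 to 5648130, plus strand, mm10). It read 10.1, 9.83 and 10.9 FPKM in WT and 10.9, 9.26 and 9.96 FPKM in KO-labelled libraries, from 819 to 1007 reads. Its values in both groups cover much the same span. The means were 10.3 ± 0.562 and 10.1 ± 0.841 FPKM (SD, n = 3 each), with a log2 fold change of -0.03 (95% interval -0.21 to 0.14). The sign turned without WT replicate 3, to 0.0080, and without KO-labelled replicate 2, to 0.02.

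Nfkb1 encodes p105, the precursor of p50, the usual partner of p65 (chromosome 3, 135584655 to 135691547, minus strand). Its levels were 1.49, 1.55 and 1.62 FPKM in WT and 1.56, 1.53 and 1.58 FPKM in KO-labelled libraries, the narrowest span relative to its level among the members. Its variance within groups was 1.15 times what counting of reads alone would give. The log2 fold change was 0.0036 (95% interval -0.19 to 0.19), and its sign turned without WT replicate 1, to -0.02, and without KO-labelled replicate 3, to -0.0052. Rela RNA stood above Nfkb1 RNA per unit of length in every library, by a ratio of 6.63 ± 0.258 in WT and 6.46 ± 0.490 in KO-labelled libraries (n = 3 each), with ranges of 6.34 to 6.81 and 6.07 to 7.01 that overlap. The deposited gene models differ in length, 2716 bases for Rela and 12061 for Nfkb1. Reads before scaling to length were closer, at 819 to 1007 and 560 to 683 a library.

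Relb and Nfkb2 encode the subunits of the noncanonical arm, RelB and the p100 precursor of p52. Relb (chromosome 7, 19606217 to 19629438, minus strand) read 1.79, 1.90 and 2.05 FPKM in WT and 1.81, 1.75 and 1.80 FPKM in KO-labelled libraries. The upper WT libraries exceed all others while WT replicate 1 sits among KO-labelled libraries, and the log2 fold change was -0.08 (95% interval -0.27 to 0.11), or -0.035 without WT replicate 3. Nfkb2 (chromosome 19, 46304737 to 46312090, plus strand), whose promoter holds the κB consensus, read 1.28, 1.14 and 1.05 FPKM in WT and 1.24, 0.866 and 1.43 FPKM in KO-labelled libraries. Both its lowest and its highest value belong to KO-labelled libraries. Its log2 fold change was 0.0048 (95% interval -0.35 to 0.36), and leaving out any 1 of WT replicates 2 or 3 or of KO-labelled replicates 1 or 3 turned the sign, to between -0.10 and -0.0028. Its deposited position differs from GENCODE M21, and within that position its exons share 4 bases with Psd, a gene on the other strand at 76.6 to 85.7 FPKM, and 114 bases with the noncoding gene AC114539.1, so some of its reads may not be its own, as no source used here says whether strand entered the counting. The Relb to Nfkb2 ratio was 1.67 ± 0.276 in WT and 1.58 ± 0.399 in KO-labelled libraries (n = 3 each).

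Nfkbia, encoding IκBα, the inhibitor that NF-κB itself re-induces, had the highest level of the 10 (chromosome 12, 55489410 to 55492647, minus strand). Its values were 10.4, 14.1 and 14.1 FPKM in WT and 11.7, 10.8 and 12.9 FPKM in KO-labelled libraries, from 523 to 753 reads. WT replicate 1 lies below every other library, and the remaining WT libraries lie above all 3 KO-labelled ones. The variance within groups was 13.3 times that of counting alone, the highest ratio of the members, with means of 12.9 ± 2.15 and 11.8 ± 1.08 FPKM (SD, n = 3 each). Its log2 fold change came to -0.11 (95% interval -0.42 to 0.19). Without WT replicate 1 it was -0.25, with an unadjusted p of 0.0258 (limma, adjusted p = 0.9998 over all genes), and without 1 of the other libraries it ranged from -0.18 to -0.04. Nfkbia RNA stood at 1.03 to 1.44 times Rela RNA in WT and at 1.07 to 1.30 times in KO-labelled libraries.

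Tnfaip3, encoding A20, an enzyme that edits ubiquitin chains and shuts off signalling above the IκB kinases, was higher in each KO-labelled library than in any WT library (chromosome 10, 19000910 to 19015657, minus strand). It read 0.864, 0.848 and 1.03 FPKM in WT, from 188 to 247 reads, and 1.08, 1.23 and 1.08 FPKM in KO-labelled libraries, from 265 to 296 reads. The gap between the groups, from WT replicate 3 to the nearest KO-labelled library, is narrower than the range within WT. Groups that do not overlap, higher in KO-labelled libraries, were found for 4.17% of all genes tested. The mean was 23.7% higher and the log2 fold change 0.21 (standard error 0.11, 95% interval -0.04 to 0.46), an unadjusted p of 0.0927 (limma, adjusted p = 0.999, n = 3 per group). Of 19 alternative settings, 3 gave an unadjusted p under 0.05 (limma), as 533 to 1420 of all 15694 genes tested had in those 3. Over the 19 settings the estimates ran from 0.16 to 0.32. With groups apart, most of these settings could not turn the sign, so its constancy adds little.

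Birc3 encodes cIAP2, a ubiquitin ligase of the tumour necrosis factor receptor complex that limits cell death and is a classical NF-κB target (chromosome 9, 7848699 to 7873186, minus strand). Its values were 0.415, 0.358 and 0.373 FPKM in WT and 0.518, 0.545 and 0.418 FPKM in KO-labelled libraries. All 3 of the latter exceed all 3 WT values, narrowly for KO-labelled replicate 3. These levels rest on 55 to 65 reads in WT and 75 to 91 reads in KO-labelled libraries, and the Poisson 95% interval of WT replicate 1, 0.321 to 0.529 FPKM, takes in the value of the nearest KO-labelled library. The exact two-sided permutation p was 0.1, the smallest that 3 against 3 libraries can give. The mean was 29.2% higher in KO-labelled libraries. In a fit with no level filter the log2 fold change of FPKM + 0.5 was 0.17 (95% interval -0.09 to 0.43, limma adjusted p = 0.959). Among genes with a mean from 0.1 to 0.5 FPKM, 5.41% had groups that do not overlap with KO-labelled libraries higher, and 9.84% in either direction. On the log2 scale Birc3 stood at 0.12, 0.16 and -0.03 from its mean in KO-labelled libraries and between -0.12 and -0.03 in WT. Ttr, the 1 choroid plexus marker of 5 that reached the level filter, was likewise high in KO-labelled replicates 1 and 2, at 1.03 and 0.81, and low elsewhere, at -0.20 in KO-labelled replicate 3 and -0.82 to -0.35 in WT. The summed level of the 5 markers, none at zero throughout, was 3.39 to 4.58 FPKM in WT and 4.66 to 10.03 FPKM in KO-labelled libraries, and its part in the Birc3 values was not tested.

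Ptgs2, encoding cyclooxygenase 2, the inducible enzyme of prostaglandin synthesis, was lower in every KO-labelled library than in any WT library (chromosome 1, 150100031 to 150108227, plus strand). In cortex it is known as a gene of excitatory neurons that responds to synaptic activity as well as an NF-κB target. It read 3.33, 3.74 and 4.002 FPKM in WT and 3.14, 2.89 and 2.47 FPKM in KO-labelled libraries, from 406 to 608 reads. WT replicate 1 and KO-labelled replicate 1 are the nearest pair, and their Poisson intervals overlap. Groups that do not overlap, lower in KO-labelled libraries, were found for 4.7% of all genes tested. The mean was lower by a ratio of 0.768, and the log2 fold change was -0.33 (standard error 0.10, 95% interval -0.57 to -0.09), an unadjusted p of 0.0140 (limma, adjusted p = 0.999, n = 3 per group), the 146th smallest of the genes tested. The 19 alternative settings gave estimates from -0.40 to -0.25, each with an unadjusted p under 0.05, and the smallest adjusted p was 0.315 (limma). Over all genes, 426 to 2092 were under 0.05 by setting. The most, of 15694, came with WT replicate 3 and KO-labelled replicate 1 both left out, where Ptgs2 had its smallest adjusted p. The sign that the 19 estimates share adds little, as only 13 of the 19 settings can move the estimate. With groups apart, leaving out or weighting libraries or changing the pseudocount could not turn the sign.

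Neuronal immediate early genes, such as Arc, also had lower estimates. All 10 listed were lower in KO-labelled libraries, with a median log2 fold change of -0.32, 0 passed, and their summed level was 329 to 616 FPKM in WT and 302 to 428 FPKM in the others. Over all genes tested, 52.0% were lower, and genes of a list that move together by library are not independent counts. Without WT replicate 3, 7 of the 10 were lower and the median was -0.09, and without KO-labelled replicate 1 all 10 were lower with a median of -0.21. By library the list stood at -0.21, 0.04 and 0.59 log2 units from its mean in WT and at -0.33, -0.15 and 0.05 in KO-labelled libraries, and Ptgs2 at 0.04, 0.19 and 0.27 in WT and -0.04, -0.14 and -0.33 in KO-labelled libraries. Both were highest in WT replicate 3, while KO-labelled replicate 3 was lowest for Ptgs2 and above the average for the list. Without WT replicate 3 the log2 fold change of Ptgs2 was -0.28 and without that library and KO-labelled replicate 1 together it was -0.34. Excitatory neuron markers, by contrast, deviated from their mean by -0.02 to 0.02 log2 units. The part of immediate early gene levels in the Ptgs2 difference was not tested, and in bulk tissue fewer cells of a type and less RNA per cell cannot be told apart.

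**Figure D2:**
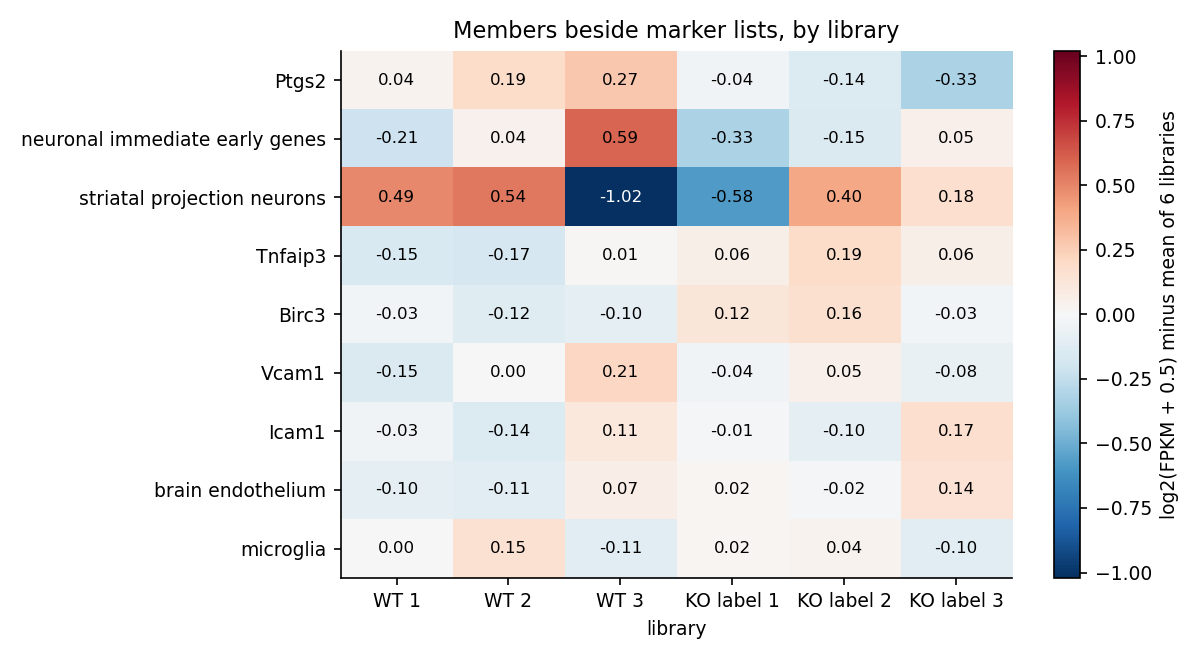
Deviation of log2(FPKM + 0.5) from the mean of the 6 libraries, for 5 members and 4 marker lists (mean over the tested genes of each list), with a column for each library. Ptgs2 runs from 0.27 in WT replicate 3 to -0.33 in KO-labelled replicate 3, and the striatal list reaches -1.02 in WT replicate 3.

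Vcam1 and Icam1 encode adhesion molecules that cytokines induce on endothelium through NF-κB, where they catch passing leukocytes. Vcam1, which astrocytes also express (chromosome 3, 116109949 to 116129688, minus strand), read 1.67, 1.91 and 2.28 FPKM in WT and 1.84, 1.99 and 1.78 FPKM in KO-labelled libraries. The values in KO-labelled libraries fall inside the WT range. The log2 fold change was -0.04 (95% interval -0.30 to 0.22), and without WT replicate 3 it was 0.05. Its exons share 61 bases with the antisense gene Gm43109, which read at most 0.0398 FPKM.

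Icam1 (chromosome 9, 21015985 to 21028817, plus strand) read 0.411, 0.344 and 0.505 FPKM in WT and 0.426, 0.371 and 0.551 FPKM in KO-labelled libraries, from 46 to 86 reads. The groups overlap throughout, and the fit with no level filter gave a log2 fold change of 0.04 (95% interval -0.26 to 0.35, limma adjusted p = 0.978). The exact two-sided permutation p was 0.6. Its exons share 511 of 4360 bases with the antisense gene Gm47079, which read 0.321 to 0.430 FPKM, close to Icam1 itself, so its level is uncertain where counting may not have used strand.

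Endothelial markers were present in all libraries, with 0 of 10 at zero. Their sum was 64.6 to 73.7 FPKM in WT and 66.1 to 74.5 FPKM in KO-labelled libraries, with 8 of 10 higher in the latter, a median log2 fold change of 0.09 and 0 past the threshold. By library the list stood at -0.10, -0.11 and 0.07 log2 units in WT and 0.02, -0.02 and 0.14 in KO-labelled libraries. On this scale Icam1 and the list share their highest library, KO-labelled replicate 3, and Tnfaip3 and Birc3 have theirs in replicate 2. Microglial markers, 0 of 8 at zero, summed to 130 to 164 FPKM in WT and 135 to 155 FPKM in KO-labelled libraries, with 7 of 8 lower and a median of -0.05. That count fell to 3 of 8 without WT replicate 2, with a median of 0.03, and to 3 of 8 without KO-labelled replicate 3, with a median of 0.0072. Without WT replicate 3 it was 7 of 8, with a median of -0.11. The endothelial median ran from 0.06 without KO-labelled replicate 3, with 7 of 10 higher, to 0.13 without KO-labelled replicate 2, with 9 of 10 higher. Over all genes tested, 52.0% were lower in KO-labelled libraries. Astrocyte markers summed to 122 to 132 FPKM in WT and 118 to 129 FPKM in KO-labelled libraries. Of the 6, 2 were higher and 4 lower, with a median of -0.04 and estimates from -0.21 to 0.22. An unadjusted p under 0.05 was found for 2 of them (limma), against 3.82% of all genes tested, and 0 passed. The part of these cell types in the levels of Tnfaip3, Birc3, Icam1 and Vcam1 was not tested.

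**Figure D3:**
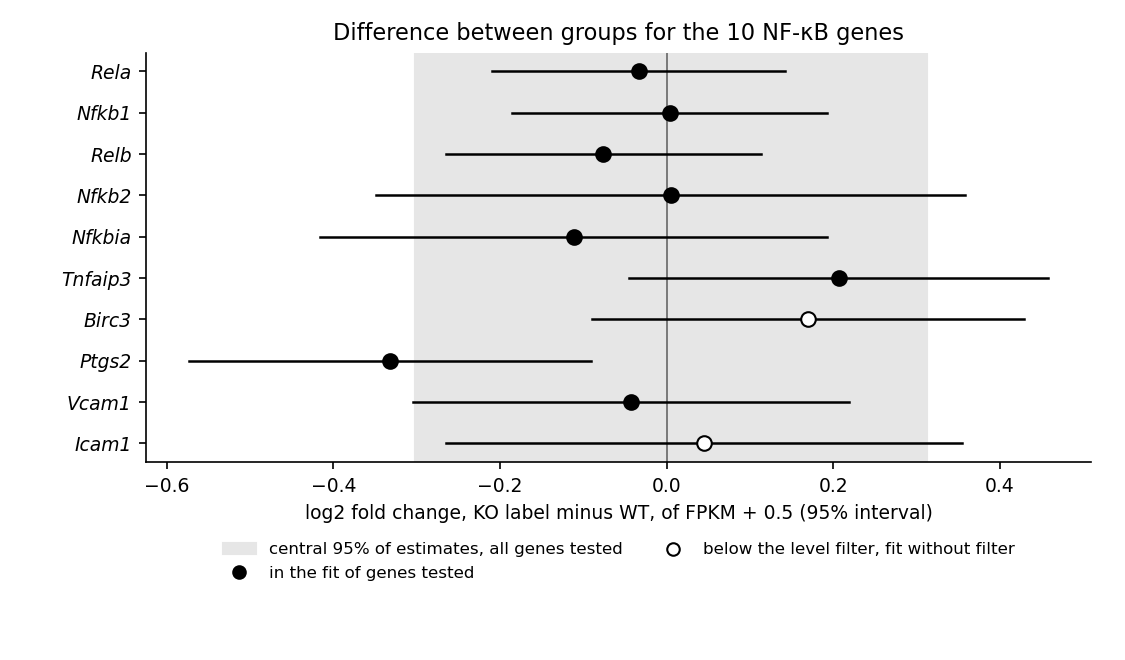
Log2 fold change of FPKM + 0.5, KO-labelled libraries minus WT, with its 95% interval for each of the 10 genes, ordered by role, over a grey band that holds the central 95% of the estimates of all genes tested, -0.30 to 0.31. Ptgs2, at -0.33, is the member whose estimate lies outside the band and whose interval leaves out zero, and open circles mark the genes below the level filter. Adding 0.5 draws genes of low level, such as Birc3 and Tnfaip3, towards zero, so a place inside the band depends partly on level.

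In order of mean level over the 6 libraries the members ran Nfkbia at 12.3 FPKM, Rela at 10.2, Ptgs2 at 3.26, Vcam1 at 1.91, Relb at 1.85, Nfkb1 at 1.55, Nfkb2 at 1.17, Tnfaip3 at 1.02, Birc3 at 0.438 and Icam1 at 0.435 FPKM. The first stood 28.4 times above the last. This order is per base of the deposited gene models, which run from 1610 bases for Nfkbia to 12061 for Nfkb1. Ranges over libraries overlapped between Nfkbia and Rela, between Vcam1 and Relb, between Nfkb2 and Tnfaip3 and between Birc3 and Icam1, while the ranges of the other neighbours were apart. Within libraries Nfkbia still stood above Rela in 6 of 6, whereas Vcam1 exceeded Relb in 4 of 6, Nfkb2 exceeded Tnfaip3 in 5 of 6 and Birc3 exceeded Icam1 in 4 of 6, so the order of these last pairs is not settled beyond their spread. Nfkbia and Rela lay above 74.0% and 69.5% of all genes tested, whereas Tnfaip3 lay above 14.5%. The 10 genes sit on 7 chromosomes, and the closest pair on 1 chromosome, Birc3 and Icam1, is 13.1 Mb apart.

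The rest of the pathway was read from 78 further genes in lists by role, of which 51 were tested and 27 lay below the level filter. In limma 0 of the 51 passed in either direction over all genes, against the background of 0%. Of these, 25 were higher and 26 lower in KO-labelled libraries, with a median log2 fold change of -0.0021. An unadjusted p under 0.05 (limma) was found for 2 of the 51, near the share of 3.82% over all genes tested. That count was 0 with TPM scaling and with voom, and 3 of 77 with no level filter, where 1214 of all 32400 genes had such a p. Of the 51, 37 lay within 0.1 log2 units of zero, as did 69.3% of all genes tested. Groups did not overlap for 3 of the 51, 1 higher and 2 lower in KO-labelled libraries, where 8.87% of all genes tested did not.

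**Figure D4:**
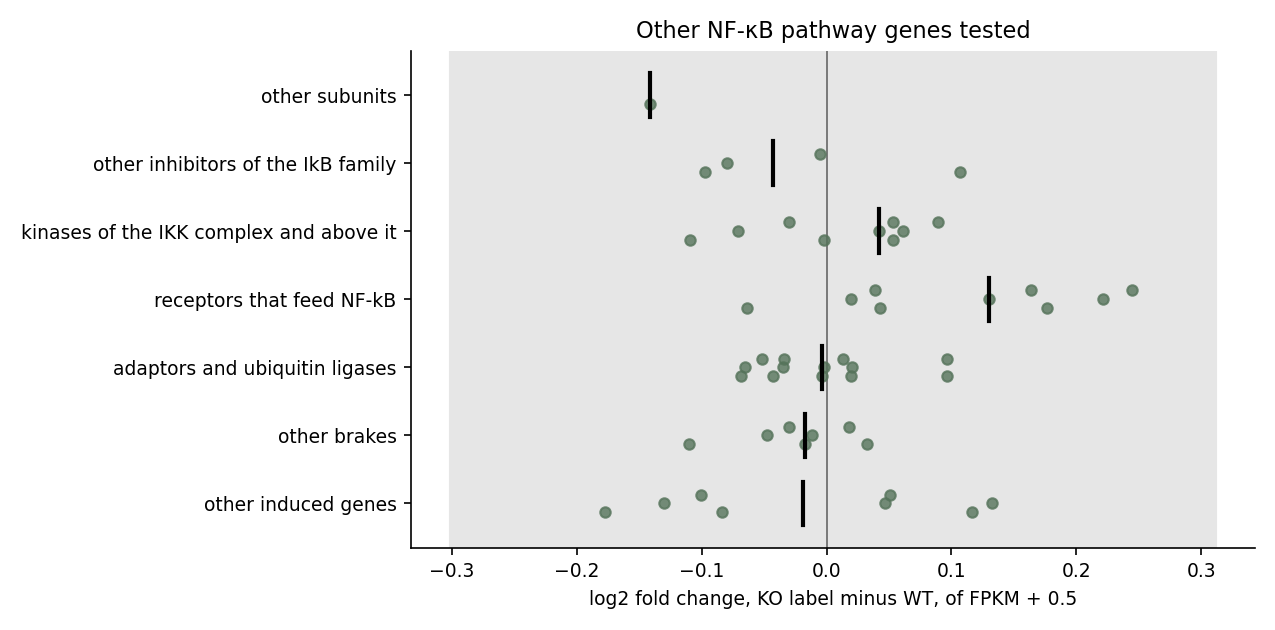
Log2 fold change of FPKM + 0.5, KO-labelled libraries minus WT, for each of the 51 other pathway genes tested (points) by role, with the median of each list as a vertical bar and the grey band of the central 95% of all genes tested. All points lie inside the band, between -0.18 and 0.24, and the receptor list has its median at 0.13. Adding 0.5 draws genes of low level towards zero, so a place inside the band depends partly on level.

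Rel, encoding c-Rel, the subunit typical of lymphoid cells, read 0.965, 0.886 and 1.12 FPKM in WT and 0.932, 0.799 and 0.819 FPKM in KO-labelled libraries, a log2 fold change of -0.14 with overlapping groups, or -0.079 without WT replicate 3. Among the other inhibitors, 1 of the 4 tested was higher and 3 lower, with a median of -0.04. Nfkbib, encoding IκBβ, was about as abundant as Nfkbia, at 11.7 ± 0.575 FPKM in WT and 10.9 ± 1.22 FPKM in KO-labelled libraries (n = 3 each). Nfkbiz, encoding the nuclear IκBζ, read 1.23 ± 0.286 and 1.36 ± 0.142 FPKM.

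The kinases gave 5 of 9 higher and 4 lower, with a median of 0.04. Of the 3 components of the IκB kinase complex, Chuk, encoding the kinase IKKα, read 7.78 ± 0.750 FPKM in WT and 8.34 ± 1.18 FPKM in KO-labelled libraries. Ikbkb, encoding the kinase IKKβ, read 2.37 ± 0.277 and 2.51 ± 0.394 FPKM, and its log2 fold change of 0.06 turned to -0.03 without KO-labelled replicate 3. The gene model of Ikbkb has 19078 bases against 5087 for Chuk, with 1304 to 1989 and 1129 to 1716 reads a library. Ikbkg, encoding the scaffold NEMO, read 4.76 ± 0.239 and 4.91 ± 0.0114 FPKM. Chuk and Ikbkb were both lowest in KO-labelled replicate 1 and highest in KO-labelled replicate 3. Tbk1, a related kinase, read 13.9 ± 1.30 and 12.8 ± 0.601 FPKM, and Tab2, an adaptor of the kinase TAK1, 10.4 ± 0.464 and 9.92 ± 0.273 FPKM.

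Among receptors, 8 of 9 tested had higher estimates in KO-labelled libraries, 0 past the threshold, with a median log2 fold change of 0.13 against -0.0042 over all genes. Of all genes tested, 52.0% had lower estimates. By library the list stood at -0.16 log2 units in WT replicate 1 and 0.17 in KO-labelled replicate 1, and the other 4 libraries lay between -0.02 and 0.01, and the median was 0.05 without the former (7 of 9 higher) and 0.08 without the latter (5 of 9 higher). Il1r1, the signalling receptor of interleukin 1, read 0.513, 0.625 and 0.588 FPKM in WT and 0.765, 0.589 and 0.926 FPKM in KO-labelled libraries, which overlap. Tlr7, a sensor of single-stranded RNA, read 0.345, 0.678 and 0.517 FPKM in WT and 0.809, 0.698 and 0.575 FPKM in the others, also overlapping, from 44 to 112 reads. Adaptors and ubiquitin ligases gave 5 of 13 higher and a median of -0.0037, with Rbck1, encoding the HOIL-1 part of the linear ubiquitin ligase, at 20.9 ± 0.644 and 22.4 ± 0.994 FPKM and the adaptor Tradd at 3.52 ± 0.472 and 3.79 ± 0.339 FPKM. The other brakes gave 2 of 7 higher and a median of -0.02, with Tax1bp1, a partner of A20, at 13.9 ± 0.519 and 13.4 ± 0.0276 FPKM and Tnip2, which binds A20, at 5.23 ± 0.783 and 4.79 ± 0.480 FPKM.

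Of 23 other induced genes, 8 were tested, 4 higher and 4 lower, with a median of -0.02. The other 15, among them Lcn2, which is described at the end, lay below the level filter. Gadd45b, a regulator of stress kinase signalling that neuronal activity also induces, read 9.53, 9.64 and 10.9 FPKM in WT and 8.22, 8.94 and 9.22 FPKM in KO-labelled libraries. Its groups do not overlap and its log2 fold change was -0.18 (95% interval -0.35 to -0.0059). Bcl2l1, encoding the survival factor Bcl-xL, read 24.8, 25.1 and 22.9 FPKM in WT and 22.4, 21.5 and 22.5 FPKM in the others, again without overlap, a log2 fold change of -0.13 (95% interval -0.25 to -0.0060). Neither passed (limma adjusted p = 0.999 for both, unadjusted p of 0.0444 and 0.0423). Of all genes tested, 4.7% had groups apart with KO-labelled libraries lower. An unadjusted p under 0.05 with a lower level was found for 2.19% (limma). The unadjusted p of Gadd45b stayed under 0.05 in 9 of 19 alternative settings, with values from -0.21 to -0.073, the smallest without WT replicate 3 and KO-labelled replicate 1 together, and -0.12 without WT replicate 3 alone. That of Bcl2l1 did so in 10 of 19, with values from -0.18 to -0.10. Over all genes, 426 to 2092 were under 0.05 by setting, against 599 in the main fit. The classical cytokine targets were near the floor of detection: Tnf had 0 to 4 reads a library, Il6 0 to 7 and Il1b 7 to 19. They lay below the level filter, so the main fit did not test them.

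Genes most like a member were taken as those with the highest Pearson correlation of log2(FPKM + 0.5) over the 6 libraries, among the 7829 genes whose mean level reached 5 FPKM. With so many genes and 6 libraries that share tissue and preparation, high values are easily reached, and they are given as description. For Ptgs2 these were Gsr (r = 0.990), Lrrc58 (0.986) and Rab4a (0.981), and for Tnfaip3 they were Ryr2 (0.977), Ddx52 (0.976) and Trim44 (0.974). Nfkbia was closest to Gosr1 (0.977), Tob2 (0.974) and Tmem170b (0.967). Vcam1 was closest to Vsig2 (0.986), Usp24 (0.978) and Spred2 (0.973), and Icam1 to Catsperz (0.993), Farsa (0.988) and Gpbp1l1 (0.984). No gene recurred among these sets.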

How the data were processed

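RNA was extracted from cortex with Trizol and made into libraries with an Illumina TruSeq kit, per the labels' protocols. Reads were aligned with Bowtie to mm10, per the submitters' processing notes, and the counting program is not given in the sources used here. The authors deposited FPKM values for each gene and library, with gene positions and lengths per the file headers. Values times length were whole multiples of 1 step in every library (100% within 0.001), which gave reads per gene. Poisson 95% intervals of reads cover counting error only.

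Values were taken as log2(FPKM + 0.5) where the mean level of a gene reached 0.5 FPKM. They were fitted with limma 3.58.1 (R 4.3.3) with a variance trend and no covariate, two-sided, with Benjamini-Hochberg adjustment at 0.05. The script was tested on simulated data. Alternatives changed the pseudocount, the level filter, the scaling (TPM, median of ratios) and the variance model, weighted samples, added a replicate block, ran voom on reads, kept protein-coding genes, or left out libraries. For the other pathway genes, and for marker lists without a library, they were chosen after seeing the data. Promoters came from RefSeq (GRCm38.p6), and exon overlaps from GENCODE M21, whose gene positions match 98.3% of rows. The members and lists were chosen with earlier results of these data known. Named are all members, Fam69c, a few fixed genes, the 2 pathway genes with the smallest p in each list, the most abundant marker of a cell type list and the 3 genes most like each of 5 members. Psd, AC114539.1, Gm43109, Gm47079, Lcn2, Tlr4, Rps27rt and Gm47283 fall outside this rule and were named after their values were seen.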

Additional observations from a re-analysis of the deposited data

How the results depend on the processing

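Under 19 alternatives 0 members and 0 other pathway genes passed in limma over all genes, and the smallest adjusted p of a member was 0.315, for Ptgs2 with WT replicate 3 and KO-labelled replicate 1 both left out. Over all genes the count was 0, with 599 at an unadjusted p under 0.05, and it was 1 with protein-coding genes only (Rps27rt) and 1 with that pair of libraries left out (Gm47283). Genes at an unadjusted p under 0.05 (limma) ran from 426 without KO-labelled replicate 2 to 2092 with that pair left out. In 13 of the 19 alternatives the estimate itself can move. Of the 104 values these gave for the 8 members tested, 91 kept their sign and 13 turned it, all in Nfkb1, Nfkb2, Rela and Vcam1. For Ptgs2 and Tnfaip3, whose groups do not overlap, most of these alternatives could not turn the sign. With sample weights the log2 fold change was -0.13 for Nfkb2 and 0.047 for Vcam1, and with the pair left out -0.073 for Nfkb2, 0.060 for Vcam1 and 0.056 for Tnip2. Leaving out each library in turn gave -0.019 to 0.027 for Nfkb1, -0.10 to 0.15 for Nfkb2, -0.093 to 0.021 for Rela, -0.13 to 0.051 for Vcam1 and -0.034 to 0.16 for Ikbkb. The cause was not tested.

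Deviations of same-numbered libraries correlated at 0.08, 0.01 and 0.21, not all above 0.1, so the numbers were not taken as pairs. WT replicates 1 and 3 correlated best with their own number and WT replicate 2 with KO-labelled replicate 1, a hint from the data and not the design. With the replicate block, 0 genes and 0 members passed, with 837 genes at an unadjusted p under 0.05, and the unadjusted p of Ptgs2 was 0.0348 (limma), against 0.0140 without it. The block cannot move an estimate in this balanced design. The 95% interval of a tested gene's log2 fold change reached 0.21 to either side at the median, and Birc3 and Icam1 are limited by at most 91 and 86 reads a library.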

Other observations

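Among the 27 pathway genes below the level filter, Lcn2 and Tlr4 had groups that do not overlap, and both were named after their values were seen. Both lie among the 17 of these genes with a mean from 0.1 to 0.5 FPKM, and of all genes in that range 9.84% had groups apart in either direction. Lcn2, encoding the iron-binding lipocalin 2, a target of NF-κB in inflamed tissue, read 0.0244, 0.0373 and 0.184 FPKM in WT and 1.05, 1.34 and 0.266 FPKM in KO-labelled libraries. These rest on 2, 3 and 16 reads and on 93, 117 and 25 reads, so KO-labelled replicates 1 and 2 stand far above the rest and replicate 3 near WT replicate 3. Ttr, the most abundant choroid plexus gene of its list, was also lowest in replicate 3 among KO-labelled libraries, at 2.10, 3.10 and 2.79 FPKM in WT and 8.91, 7.58 and 3.50 FPKM in the others, with the list's other 4 genes below the filter and its sum at 3.39 to 4.58 and 4.66 to 10.03 FPKM. Its part in the Lcn2 values was not tested. Tlr4, the receptor for bacterial lipopolysaccharide, read 0.167, 0.147 and 0.157 FPKM in WT and 0.196, 0.210 and 0.181 FPKM in KO-labelled libraries, from 25 to 39 reads, whose counting intervals overlap.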
